A study of Mus musculus with 4 samples.

Results

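The 7 genes described here, Prg2, Prg3, Epx, Ear1, Ear2, Ear6 and Ear10, encode proteins of the eosinophil granule. They were taken by symbol from the 23284 gene symbols of 4 RNA-seq libraries of mouse pre-B cells, the marrow precursors that have assembled an immunoglobulin heavy chain. The members were selected on their FPKM in these same libraries, mainly on how far the transgenic one stood above its wild type, so the differences below are a description. All mice were C57BL/6J. The groups, of 1 library each, were wild-type marrow at steady state, marrow transgenic for STAP-2 (signal-transducing adaptor protein-2, gene Stap2) at steady state, wild-type marrow 1 month after transplantation, and, at the same interval after transplantation, marrow lacking STAP-2 (knockout). The steady-state libraries carry the code 0901 in their titles and the transplant libraries the code 0826. The question was which pathways STAP-2 governs in B cell precursors under stress. The promoter of the transgene, the age of the mice, the conditioning of the hosts, the way the cells were isolated and any pooling of animals are not stated in the sources at hand.

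Eosinophils are granulocytes that mature in the marrow under interleukin-5 and GATA factors, and fill their granules with very basic, cell-damaging proteins before they leave. Prg2 encodes major basic protein, the crystalline core of the granule, and Prg3 its homologue. Epx encodes eosinophil peroxidase, a haem enzyme related to the myeloperoxidase of neutrophils. The Ear genes encode eosinophil-associated ribonucleases, a rodent family that expanded by repeated duplication. All serve as markers of the eosinophil lineage and not of B cells. Whether other myeloid cells contributed to their values here was not tested.

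The Ear genes are so alike that a read often cannot be placed in 1 of them, which limits what a value for a single Ear gene means. Bases 151 to 270 of the coding sequence, counted from the A of the start codon and read from GENCODE M21 transcripts (GRCm38), are shown because they hold both a variable and an invariant stretch. Capitals mark bases that differ from Ear1.
Ear1: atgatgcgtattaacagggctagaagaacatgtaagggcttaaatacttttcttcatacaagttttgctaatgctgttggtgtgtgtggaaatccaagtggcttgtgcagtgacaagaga
Ear2: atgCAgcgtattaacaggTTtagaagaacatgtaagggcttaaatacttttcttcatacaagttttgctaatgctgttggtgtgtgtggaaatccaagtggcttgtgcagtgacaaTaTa
Ear10: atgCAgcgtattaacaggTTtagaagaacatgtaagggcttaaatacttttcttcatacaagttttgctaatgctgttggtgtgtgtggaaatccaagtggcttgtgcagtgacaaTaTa
Ear6: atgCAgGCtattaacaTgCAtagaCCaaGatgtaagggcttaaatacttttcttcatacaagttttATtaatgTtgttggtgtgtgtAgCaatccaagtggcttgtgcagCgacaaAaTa
In this window Ear2 and Ear10 each differed from Ear1 at 6 of 120 bases, by the same letters, and Ear6 at 18. Over the whole coding sequence Ear1 was 95.7% identical to Ear2 and 95.1% to Ear10, Ear2 was 97.0% identical to Ear10, and Ear6 was the most distant at 87.4% to 88.2%.

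As the sources at hand state no read length, shared sequence was counted in stretches of 50 bases. Of the 664 stretches in the Ear1 transcript, 57.4% also occurred in a transcript of another gene, among them Ear2, Ear10 and the pseudogenes Ear-ps9 and Ear-ps2. The share was 41.5% for Ear2, 39.9% for Ear10 and 1.36% for Ear6. It was 0 for Prg2, Prg3 and Epx. Prg2 and Prg3 were 66.6% identical over 658 aligned coding bases, and Epx and the myeloperoxidase gene Mpo 71.7% over 2139, with no shared stretch of that length. Values of Ear1, Ear2 and Ear10 are therefore uncertain as single genes, whereas no such sharing was found for Prg2, Prg3 and Epx. The transcripts compared did not include Ear7 or Ear12, so sharing with these was not counted. Ear6 is uncertain for that reason, since it and Ear7 were both at 4.68 FPKM in the transgenic library.

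**Figure D1:**
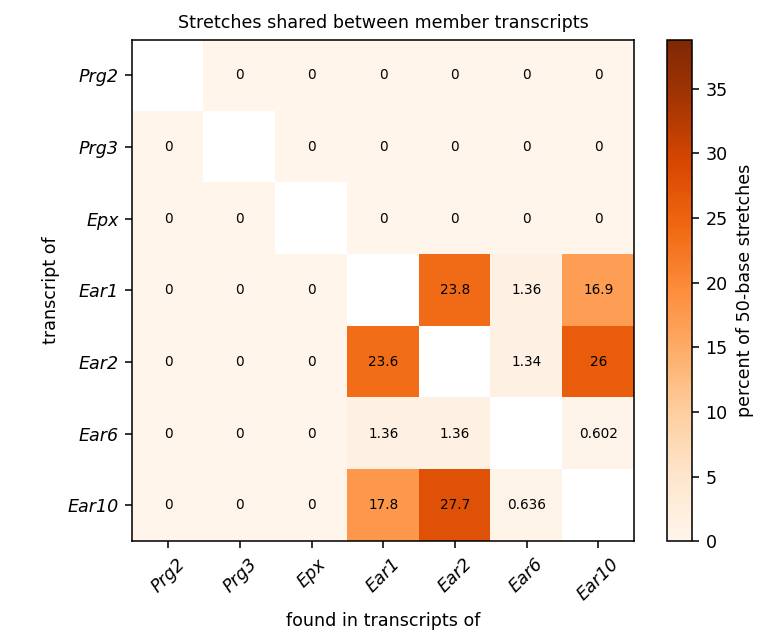
Percent of the 50-base stretches of each member's transcript (rows) that also occur in transcripts of each other member (columns). Sharing is confined among these 7 genes to the Ear rows, from 0.602% for Ear6 in Ear10 to 27.7% for Ear10 in Ear2.

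Prg2 lies on chromosome 2 at 84980461 to 84983632, plus strand, and Prg3 follows it on the same strand at 84988215 to 84993886 (GRCm38). Epx is on chromosome 11 at 87864000 to 87875536, minus strand. The Ear genes are spread over chromosome 14: Ear1 (43818765 to 43875517, minus strand), Ear10 (43922720 to 43923559, minus strand), Ear2 (44102654 to 44103534, plus strand) and Ear6 (51853699 to 51854643, plus strand). RefSeq upstream sequence (GRCm38.p6) was matched for 6 of the 7 members. RefSeq and GENCODE place some of these starts differently. The last 130 bases of that upstream sequence are shown for 5 of them because these genes were high in the same library. For Prg3 the RefSeq gene record starts at 84988196, so the end of the window shown lies inside that record. Capitals mark GATAA, a letter pattern read by GATA factors, and TTGCNNAA, a pattern related to C/EBP sites, on either strand.
Prg3 (chr2:84988085-84988214, plus strand): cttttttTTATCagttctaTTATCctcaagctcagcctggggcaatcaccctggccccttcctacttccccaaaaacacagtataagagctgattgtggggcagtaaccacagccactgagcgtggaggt
Epx (chr11:87875537-87875666, minus strand): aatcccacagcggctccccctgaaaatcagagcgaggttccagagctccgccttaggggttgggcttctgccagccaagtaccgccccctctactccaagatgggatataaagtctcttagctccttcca
Ear1 (chr14:43819640-43819769, minus strand): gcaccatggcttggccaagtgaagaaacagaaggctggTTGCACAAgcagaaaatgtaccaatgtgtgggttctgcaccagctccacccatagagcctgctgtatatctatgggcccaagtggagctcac
Ear2 (chr14:44102524-44102653, plus strand): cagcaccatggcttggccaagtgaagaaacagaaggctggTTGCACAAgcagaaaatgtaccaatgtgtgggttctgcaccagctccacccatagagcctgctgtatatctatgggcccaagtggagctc
Ear6 (chr14:51853638-51853767, plus strand): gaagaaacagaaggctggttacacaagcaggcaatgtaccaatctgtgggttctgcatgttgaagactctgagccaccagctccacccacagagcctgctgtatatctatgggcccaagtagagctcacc
Searched over 250 bases, GATAA occurred at 2 places in Prg3 and was not found in Epx or the 4 Ear genes. At least 1 match was present in 22.6% of 32851 upstream windows of that length. TTGCNNAA occurred once each in Ear1, Ear2 and Ear10 and not in Ear6, Prg3 or Epx, against 9.56% of all windows. GAGGAA, a pattern of ETS factors such as PU.1, was in none of the 6 windows and in 23.3% of all. The upstream windows of Ear1 and Ear2 were 99.2% identical over 248 aligned bases, so their matches are 1 sequence copied and not separate occurrences.

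The values are FPKM, reads scaled by transcript length and by library size, and permit levels to be compared between genes. They lay on steps of 1 read, from which depths of about 7300000 (steady-state wild type), 7270000 (transgenic), 7780000 (transplanted wild type) and 8670000 reads (library labelled knockout) were estimated. Ranges in brackets are 95% intervals from the estimated reads, exact Poisson for a level and exact Clopper-Pearson for a ratio. They cover counting error and nothing else, and since each group is 1 library, differences have neither a replicate check nor a test. Stap2 stood at 0.212 and 0.536 FPKM at steady state and at 0 and 0.179 after transplantation, a handful of reads at most, so it checks neither the transgenic nor the knockout label. B lineage genes dominated all libraries, with the receptor component Cd79a between 1624 and 1952 FPKM. In such bulk samples more cells of a type and more RNA per cell cannot be told apart.

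All members but Ear10 had their highest value in the transgenic library. Their summed level was 21.5 FPKM in steady-state wild type, 80.1 in the transgenic library, 20.7 in transplanted wild type and 15.1 in the knockout-labelled library. In the transgenic library 6 of 7 members were at 1 FPKM or more. In each of the other libraries 2 were, Prg2 and Prg3, and these made up 95.1% to 97.5% of the sum there, against 82.6% in the transgenic library. About 401 reads stood behind the sum in the transgenic library, and 112, 123 and 94.6 in the others.

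Prg2 was at 3.46 FPKM (1.99 to 5.66, 16 reads) in wild type at steady state and at 35.1 (30.0 to 41.1, 161 reads) in the transgenic library. After transplantation it was at 4.09 (2.50 to 6.32, 20 reads) in wild type and at 1.46 (0.634 to 2.89, 8 reads) in the library labelled knockout. The transgenic interval lay far above the others, and those of the wild-type libraries overlapped each other. The ratio of transgenic to wild type was 10.1 (6.03 to 18.1).

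Prg2 and Prg3 both rested on more than 3 reads in every library. Prg3 varied less between the libraries than its neighbour. It stood at 17.5 FPKM (14.1 to 21.3, 94 reads) and 31.0 (26.5 to 36.1, 167 reads) in wild type and transgenic at steady state. In wild type and the library labelled knockout after transplantation it stood at 16.0 (12.9 to 19.6, 92 reads) and 12.9 (10.3 to 16.0, 83 reads). The transgenic library was again the high one, at a ratio of 1.77 (1.38 to 2.32) to its wild type, and the remaining intervals overlapped. Within a library, Prg2 per Prg3 was 0.198 (0.110 to 0.342) in steady-state wild type, 0.256 (0.149 to 0.418) in transplanted wild type and 0.113 (0.0474 to 0.234) in the library labelled knockout. In the transgenic library this quotient was 1.13 (0.908 to 1.42), outside the intervals of the other 3. Prg3 thus exceeded Prg2 several-fold in 3 libraries, and both were about level in the transgenic one.

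The 3′ end of the RefSeq Prg3 gene overlaps that of P2rx3, an ATP-gated channel gene on the opposite strand, by 11 bases, and the strand setting of the counting is not stated in the sources at hand. P2rx3 was at 24.0, 28.5, 17.2 and 23.6 FPKM, in the order steady-state wild type, transgenic, transplanted wild type and library labelled knockout. Slc43a3, a nucleobase transporter gene upstream of Prg2, was at 34.4, 41.8, 31.2 and 37.5 in the same order. Both neighbours of the Prg2 and Prg3 pair were thus expressed in all libraries and a little higher in the transgenic than in the steady-state wild type, by 0.24 and 0.28 on the log2(FPKM + 1) scale. For Prg2 and Prg3 the corresponding differences were 3.02 and 0.79. The part of P2rx3 in the Prg3 values was not tested.

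Epx was listed at 0 in wild type at steady state, where 3 reads would be 0.166 FPKM. It was at 1.55 FPKM (1.03 to 2.24, 28 reads) in the transgenic library, at 0.571 (0.285 to 1.02, 11 reads) in transplanted wild type and at 0.0463 (0.00118 to 0.259, 1 read) in the library labelled knockout. The transgenic and transplanted wild-type intervals touched neither each other nor that of the library labelled knockout. Epx is the member whose order over the libraries set transplanted wild type apart from the other low ones.

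The Ear genes rested on few reads outside the transgenic library. Ear1 was at 5.45 FPKM there (3.34 to 8.44, 20 reads) and listed at 0 in the other 3 libraries, where 3 reads would be 0.688 to 0.817 FPKM. Ear6 was at 4.68 (2.71 to 7.44, 17 reads) in the transgenic library and at 0.685 (0.142 to 2.01, 3 reads) in the library labelled knockout, with no whole read in the wild types. Ear2 was at 2.30 (1.11 to 4.61) in the transgenic library and at 0.536 (0.0651 to 1.94, 2 reads) in steady-state wild type. The Ear2 value of the transgenic library came to 8.51 reads, not a whole number, and its values after transplantation were 1.54e-04 and 1.87e-04 FPKM, under 1 read. Ear10 was listed at 0 in all 4 libraries, which for the 3-read limit means 0.739 to 0.881 FPKM, and 39.9% of its stretches are shared.

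Summing the 4 Ear members removes the division of reads among them, though not between them and other Ear genes. The sum was 0.536 FPKM in steady-state wild type, 12.4 in the transgenic library, 1.59e-04 in transplanted wild type and 0.685 in the knockout-labelled library, on about 45.6 reads in the transgenic library and no more than 2.99 elsewhere. Of 6 further Ear symbols, Ear4, Ear5, Ear11 and Ear14 were listed at 0 in every library. Ear7 was at 0, 4.68, 0.496 and 2.18e-05 FPKM and Ear12 at 0.00166, 1.31, 1.96 and 0.437, in the order steady-state wild type, transgenic, transplanted wild type and library labelled knockout. Ear7 was highest in the transgenic library and Ear12 in transplanted wild type. With them the sum over all Ear symbols was 0.538, 18.4, 2.46 and 1.12 FPKM, so the transgenic library stayed the highest and transplanted wild type no longer lay at 0.

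**Figure D2:**
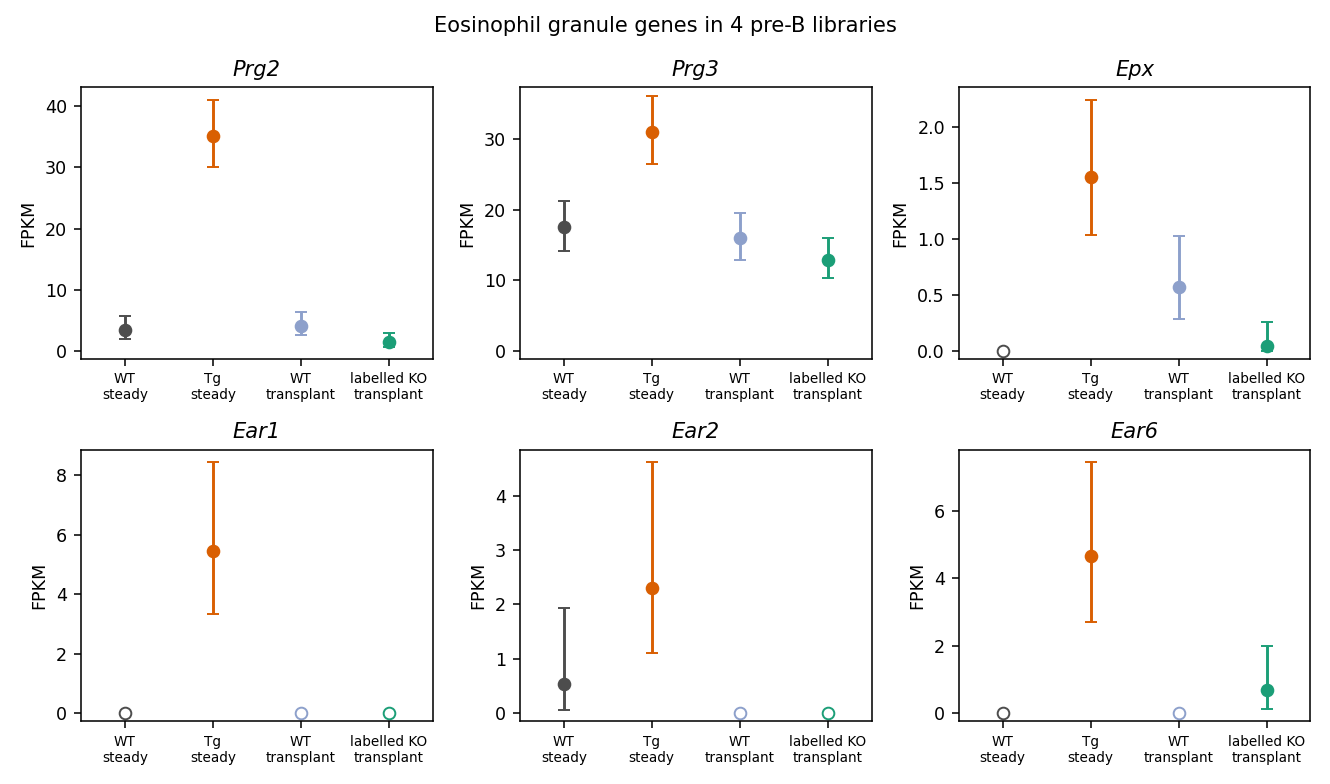
FPKM (vertical axes from 0, each panel with its own scale) of 6 members in the 4 libraries, 1 point per library with its 95% counting interval; open points rest on less than 1 read. The transgenic library is highest in all 6 panels, from 1.55 FPKM for Epx to 35.1 for Prg2.

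Differences of at least 2-fold were also counted over all genes that reached 1 FPKM in either of the libraries compared, on the log2(FPKM + 1) scale, which understates the change of low genes. Between transgenic and wild type at steady state 6 members passed that filter, and 5 were at least 2-fold higher (Prg2, Epx, Ear1, Ear2 and Ear6) and 0 lower, beside 1.22% of 10843 genes higher and 0.682% lower. The values that chose the members are among these, and 4 of them passed the filter through the transgenic library alone, so nothing is read from the count. Prg3, at 0.79, fell short of 2-fold. For Ear2 the ratio of 4.29 had an interval from 0.935 to 43.0 and so did not exclude equal levels. The median difference was 1.93 over the 6 and 1.35 over all 7 members, against -0.02 over all genes.

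The loss of STAP-2 in recovering marrow is the subject of the comparison within the transplanted pair. Prg2 was 2.80-fold lower in the library labelled knockout (1.18 to 7.32), and Epx 12.3-fold lower with a very wide interval (1.78 to 528), since it rests on 1 read against 11. Prg3 was 1.24-fold lower (0.909 to 1.68), an interval that includes no difference. Ear6 went the other way, with 3 reads in the library labelled knockout and under 1 in wild type. Ear7 and Ear12 were lower in the library labelled knockout. So was the sum over all Ear symbols, which came to 1.12 FPKM there against 2.46 for wild type. How reads were divided between Ear6 and Ear7 was not tested. Of 2 members that passed the filter, 1 was at least 2-fold lower (Prg2) and 0 higher, beside 1.18% of 10790 genes lower and 0.667% higher. With each library rescaled to the same sum Prg2 was no longer 2-fold lower, and the split of all genes was 117 higher and 105 lower in place of 72 and 127.

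Transplanted and steady-state wild type differ in transplantation and in title code, which cannot be told apart. Prg2 had a ratio of 1.18 (0.578 to 2.42) and Prg3 of 0.915 (0.682 to 1.24) between them, and both intervals include no difference. Epx was at 11 reads after transplantation and listed at 0 before. Of 2 members that passed the filter, 0 were 2-fold higher and 0 lower, beside 1.67% of 10835 genes higher and 0.628% lower. These comparisons share wild-type libraries with those above.

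**Figure D3:**
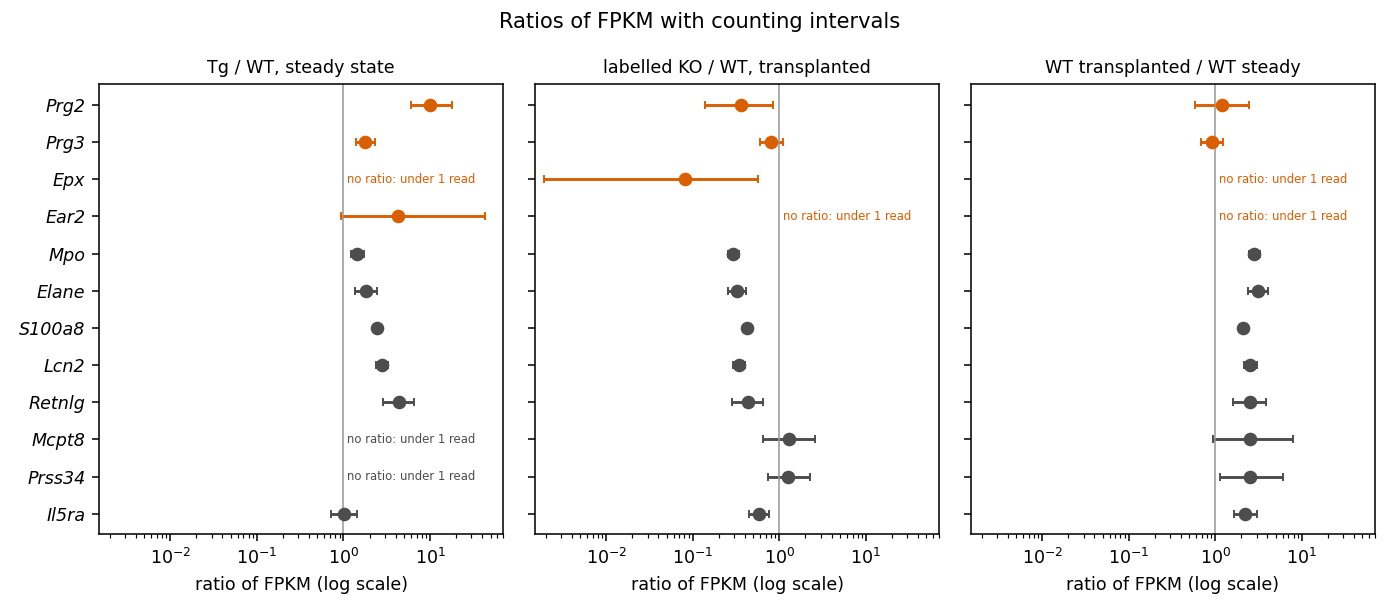
Ratio of FPKM (horizontal log axes) with 95% counting intervals in the 3 comparisons, for 4 granule members (orange) and 8 other myeloid genes (grey). Prg2 lies at 10.1 in the transgenic comparison, above Mpo at 1.45 and S100a8 at 2.46. Retnlg lies at 4.33 (2.84 to 6.56) there, and its interval overlaps that of Prg2. Between the wild types Prg2 lies at 1.18 and Mpo at 2.82.

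Granule genes of neutrophils and their progenitors were the most similar group by function. In transplanted wild type their sums stood well above those of steady-state wild type, whereas the sum of the eosinophil members did not. Prg2 and the sum of the late neutrophil genes nevertheless ranked the libraries in the same order. The summed level of 12 late neutrophil granule genes was 781 FPKM in steady-state wild type, 1871 in the transgenic library, 1701 in transplanted wild type and 660 in the knockout-labelled library. That of 8 early myeloid granule genes was 45.2, 72.7, 135 and 44.9. Of the late genes 8 were at least 2-fold higher in the transgenic library, 6 in transplanted wild type relative to steady state, and the library labelled knockout had 10 lower. Of the early genes these counts were 0, 5 and 5. Over all genes the shares were 1.22% higher, 1.67% higher and 1.18% lower in these comparisons. The largest ratios of transgenic to steady-state wild type among the late genes were Mmp8 at 5.04 (2.87 to 9.09) and Retnlg at 4.33 (2.84 to 6.56). Both intervals overlapped that of Prg2 (6.03 to 18.1). By the sums, transplanted wild type was about level with the transgenic library for the late genes and above it for the early ones. Its sum of the eosinophil members was about level with steady-state wild type. Most of the late sum came from S100a8 and S100a9, at 720 and 670 FPKM in the transgenic library. Retnlg (45.7 against 26.4 FPKM) and Mmp8 (4.90 against 2.53) were higher in the transgenic library than in transplanted wild type. Lyz2 (52.0 against 76.2) and Chi3l3 (24.3 against 30.1) were lower. S100a8, a calcium-binding protein gene of neutrophils, was at 293, 720, 613 and 261 FPKM in the 4 libraries, and Elane, neutrophil elastase, at 13.4, 24.5, 41.6 and 13.6. Mpo, in the same peroxidase gene cluster as Epx on chromosome 11, was at 13.8, 19.9, 38.8 and 11.4 FPKM.

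Expressed per 100 FPKM of S100a8, Prg2 was 1.18 (0.677 to 1.95) in steady-state wild type and 4.88 (4.14 to 5.76) in the transgenic library. It was 0.668 (0.407 to 1.04) in transplanted wild type and 0.559 (0.242 to 1.11) in the library labelled knockout. The interval of the transgenic library overlapped none of the others, which is a description, since Prg2 was selected on its level there. Per 100 FPKM of Mpo, Prg2 was 25.2, 176, 10.5 and 12.9 in the same order. Prg3 per 100 FPKM of S100a8 was 5.97 (4.73 to 7.40), 4.31 (3.66 to 5.07), 2.61 (2.09 to 3.23) and 4.93 (3.89 to 6.23), so for Prg3 the transgenic library was not the highest on this scale. Per 100 FPKM of Mpo it was the highest, with Prg3 at 127 (98.9 to 161), 155 (129 to 188), 41.2 (32.8 to 51.2) and 113 (87.6 to 146), and its interval overlapped those of steady-state wild type and of the library labelled knockout. Epx per 100 FPKM of Mpo was 7.78 (5.11 to 11.5) in the transgenic library and 1.47 (0.730 to 2.64) in transplanted wild type. These peroxidase genes therefore differed in order, with Epx highest in the transgenic library and Mpo in transplanted wild type. The part of these myeloid genes in the granule gene values was not tested.

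**Figure D4:**
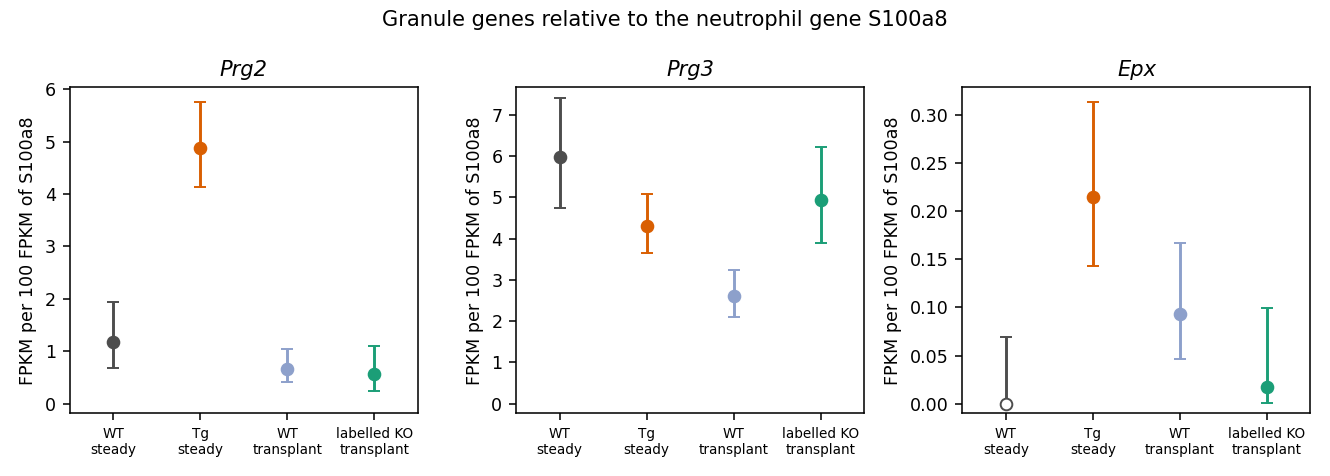
FPKM of Prg2, Prg3 and Epx per 100 FPKM of S100a8 in each library (vertical axes with their own scales), with 95% counting intervals; the open point is Epx listed at 0. Prg2 stands at 4.88 in the transgenic library and at 0.559 to 1.18 in the others, while Prg3 ranges from 2.61 to 5.97 with steady-state wild type highest.

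Of 12 surface and receptor genes of eosinophils 10 passed the filter. In the transgenic comparison 9 of these were higher and 1 lower, none by 2-fold, at a median of 0.47. Over all genes 1.22% were 2-fold higher and 0.682% lower in that comparison. The lower one of the list was Cd24a, its highest gene, at 1115 FPKM in steady-state wild type and 833 in the transgenic library. Csf2ra and Lilrb3, next in level, had ratios of 1.14 (1.01 to 1.29) and 1.31 (1.05 to 1.62). Ratios whose interval lay above 1 included Csf2rb2 at 2.40 (1.44 to 4.27), Fcer1g at 2.21 (1.20 to 4.14), Pira2 at 1.92 (1.22 to 3.15), Cd9 at 1.76 (1.23 to 2.59) and Csf2rb at 1.70 (1.40 to 2.04), near the ratio of Prg3 and below that of Prg2. Csf2rb and Csf2rb2 are close copies of each other and Pira2 belongs to a multigene family, so these are uncertain as single genes. Csf2rb2, Fcer1g, Pira2, Cd9 and Csf2rb were each higher in transplanted wild type than in the transgenic library. Between the wild types 9 of the 10 that passed were higher after transplantation, at a median of 0.88. Of these 2 were at least 2-fold higher, beside 1.67% of all genes. Il5ra, the interleukin-5 receptor subunit that B lineage cells can also express, was at 2.69 and 2.75 FPKM in steady-state wild type and the transgenic library, and at 5.93 and 3.47 in the transplanted pair, wild type first. It was highest in transplanted wild type and level at steady state, at a ratio of 1.02 (0.715 to 1.45). Ccr3, the eotaxin receptor that defines mature eosinophils, rested on 1 read in 3 libraries and 5 in transplanted wild type, at 0.0375 to 0.210 FPKM. Il1rl1, the interleukin-33 receptor gene, was at 0.168 FPKM or less. Siglecf had no matching symbol. Csf2rb, the beta chain shared by the receptors for interleukin-5, interleukin-3 and GM-CSF, was at 5.36, 9.08, 11.7 and 4.90 FPKM in the usual order. In the knockout comparison 10 of the 12 passed the filter, 0 were 2-fold higher and 2 lower (Csf2rb and Fcer1g), and the median was -0.61. Over all genes 0.667% were higher and 1.18% lower there.

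Among 12 factors of the lineage, 9 passed the filter. In the transgenic comparison 2 were at least 2-fold higher and 1 lower, at a median of -0.02. In the knockout comparison 0 were higher and 1 lower (Id2), at -0.25. Over all genes 1.22% were higher and 0.682% lower in the transgenic comparison, and 0.667% and 1.18% in the knockout comparison. The highest of these factors, Irf8, Sfpi1, Zfpm1 and Xbp1, were at 120, 78.0, 77.1 and 63.1 FPKM in steady-state wild type. In the transgenic library they were at 119, 70.8, 63.5 and 60.7. The part of B lineage cells in these levels, and so in the medians, was not tested. Cebpe, a C/EBP factor that drives the late granule genes of neutrophils and eosinophils, was at 0.530 FPKM (0.145 to 1.36, 4 reads) in steady-state wild type, 2.27 (1.32 to 3.63, 17 reads) in the transgenic library, 1.50 (0.773 to 2.61, 12 reads) in transplanted wild type and 0.559 (0.182 to 1.30, 5 reads) in the library labelled knockout. The transgenic value was the highest, at a ratio of 4.28 (1.39 to 17.4) to its wild type, and its interval overlapped that of transplanted wild type. Cebpb, the other factor that was at least 2-fold higher, was at 0.842, 3.61, 4.28 and 1.86 FPKM. Trib1, a pseudokinase gene that lowers C/EBP-alpha protein, was 2.23-fold lower in the transgenic library (1.93 to 2.59). Cebpa, the C/EBP-alpha gene, did not pass the filter, at 0.112, 0.735, 0.371 and 0.331 FPKM. Its ratio of transgenic to wild type was 6.55 (1.48 to 59.6). Gata1, the zinc finger factor that eosinophil, erythroid and mast cell development share, was at 0.682 FPKM in steady-state wild type and at 0.0720 to 0.161 in the others, so it rested on 1 read in the library where the granule genes were high. Its erythroid target Slc4a1 was also highest in steady-state wild type, at 1.45 FPKM against 0.106 to 0.208, and 10 erythroid genes summed to 72.5, 24.6, 23.8 and 30.4 FPKM. Gata2 was at 0.0906 to 0.265 FPKM throughout.

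Of 14 other genes used by eosinophils 8 passed the filter in the transgenic comparison, with a median of 0.66. Among the 8, 7 were higher and 1 lower. F5, with the top value of the list (14.9 FPKM, steady-state wild type), was the lower one. Its transgenic value was 11.4, a ratio of 0.765 (0.686 to 0.852). Beside 1.22% of all genes at least 2-fold higher and 0.682% lower, 0 of the 8 were at least 2-fold lower and 2 at least 2-fold higher. These were S100a6, a calcium-binding protein gene, at a ratio of 3.02 (1.67 to 5.46), and Alox5ap, which serves leukotriene synthesis, at 2.95 (1.75 to 5.04). Both are also expressed by neutrophils and monocytes, and in transplanted wild type they were at 8.58 and 7.98 FPKM, beside 12.1 and 8.09 in the transgenic library. Alox15, the lipoxygenase of eosinophils and some macrophages, rested on 0, 4, 5 and 1 reads in the 4 libraries. In the knockout comparison 7 of the 14 passed, at a median of -0.35. Of these 0 were 2-fold higher and 0 lower, beside 0.667% and 1.18% of all genes.

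Basophils and mast cells share progenitors and GATA factors with eosinophils, and their genes had no single order over the libraries. Mcpt8, a basophil protease gene, was at 1.30 FPKM (0.482 to 2.86) in steady-state wild type, 3.27 (1.88 to 5.34) in transplanted wild type and 4.20 (2.68 to 6.36) in the library labelled knockout, and was listed at 0 in the transgenic library. Prss34, a second basophil protease gene, was at 1.22, 3.07 and 3.88 in those libraries and likewise listed at 0 in the transgenic one. For Mcpt8 this is 0 against 6 reads at steady state, and the interval at 0, up to 0.810 FPKM, overlapped that of wild type. For Prss34 it is 0 against 9 reads, with an upper bound of 0.502 FPKM below the wild-type interval (0.558 to 2.32). Cpa3, the mast cell carboxypeptidase, was at 0.110 FPKM in both steady-state libraries and at 0.725 and 1.20 after transplantation. Hdc, histidine decarboxylase, which myeloid cells also make, was at 0.314, 2.22, 1.72 and 1.22, and Kit, the stem cell factor receptor of mast cells and progenitors, at 0.220, 0.971, 0.520 and 0.720. Hdc and Kit were thus highest in the transgenic library, at ratios to wild type of 7.06 (2.74 to 23.0) and 4.41 (2.07 to 11.3). Over 10 mast cell and basophil genes the summed level was 3.33, 3.30, 9.47 and 12.3 FPKM, with 4, 7, 4 and 4 of them listed at 0. The mast cell genes Cma1, Tpsb2 and Tpsab1 were listed at 0 in every library.

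The macrophage complement genes were highest in transplanted wild type, with C1qa at 0.468, 3.46, 7.08 and 2.77 FPKM and C1qc at 1.45, 2.76, 6.70 and 2.86. Over 12 monocyte and macrophage genes the summed level was 30.0, 43.3, 66.6 and 34.7 FPKM, highest in transplanted wild type. Their part in the granule gene values was not tested.

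The genes whose profile over the 4 libraries lay closest to that of Prg2 were sought among 8133 genes that reached 5 FPKM in any library, by the Euclidean distance between mean-centred log2(FPKM + 1) values. The members themselves were left out, as were predicted genes and small RNAs. The 8 nearest of the rest were Rnaset2a (0.94), Il1b (1.42), Hist1h4b (1.65), Retnlg (1.67), Ndufs5 (1.81), Cxcl12 (1.83), Apoe (1.83) and Mmp9 (1.91). Rnaset2a, a ribonuclease gene unrelated to the Ear family, was at 5.45 FPKM in the transgenic library and at 0.0154 or less elsewhere. Rnaset2a, Hist1h4b and Ndufs5 have close copies or multigene relatives and are uncertain. Il1b, the interleukin-1 beta gene of activated myeloid cells, was at 0.853, 6.51, 2.65 and 0.617 FPKM, and Retnlg, a resistin-like gene of granulocytes, at 10.6, 45.7, 26.4 and 11.5. Cxcl12, a chemokine gene of marrow stroma, was at 4.26 and 7.65 FPKM at steady state and at 0.348 and 0.155 after transplantation, and Apoe, of macrophages and stroma, at 45.3, 88.5, 48.1 and 28.5. On the same measure Ear1 lay at 0.92, nearer than any of these 8, Ear6 at 1.64, Ear2 at 1.68, Epx at 1.96 and Prg3 at 2.04, with S100a8 at 2.05, Elane at 2.73 and Mpo at 2.85. Prg3 and S100a8 thus lay about equally far from Prg2. With 4 points in a profile this ranking is a description.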

How the data were processed

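RNA-seq values of 4 pre-B cell libraries were used, 1 per group. Per the labels' protocols, a miRNeasy kit gave the RNA and the TruSeq kit for stranded mRNA the libraries. The submitters' processing notes name Cufflinks 2.2.1, TopHat2 2.0.13, SAMtools 0.1.19, Bowtie2 2.2.3 and the build mm10, without their order, the annotation or any filter. The file headers name no unit, and the authors' values were taken to be FPKM from their form and from the mention of Cufflinks.

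Reads were estimated with Python 3.11.15 from the steps of 1 read in genes with 1 transcript of 600 nt or more: subtracting 210 nt from the length put 66.4% to 71.2% of values of up to 20 reads within 0.1 of a whole number, against 20% by chance. The same genes also served to estimate depth. For a gene with several GENCODE M21 transcripts, the one closest to whole reads was used, else the longest. Differences are log2(FPKM + 1), with a filter of 1 FPKM in either library. The members, the other 10 gene lists and the rules were chosen with earlier results of these data known. Named genes were the members, some of the highest of each list, lineage-defining genes and the 8 nearest to Prg2. Not all of the highest genes of a list were named. Neighbours on the chromosome, lower-ranked list genes and genes of single mention were chosen after their values were seen. The procedure was tested on simulated reads. Alternatives covered pseudocount, filter, scaling and transcript length.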

Additional observations from a re-analysis of the deposited data

How the results depend on the processing

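No paired analysis was possible because each group has 1 library, and for the same reason no library could be left out. The count of 5 members higher in the transgenic library was the same with a pseudocount of 0.1, without a filter and under each of 3 rescalings. It was 2 with a pseudocount of 5 and 2 at 5 FPKM or more, where fewer genes pass. Leaving out the filter could not change it, since only Ear10 failed the filter and is listed at 0 in both libraries. The members were selected on these values, so nothing is read from a count that stayed the same. The median difference of 1.93 in that comparison became 3.68 with a pseudocount of 0.1 and 0.82 with one of 5. The 1 member lower in the library labelled knockout, Prg2, became 0 with a pseudocount of 5, 0 at 5 FPKM or more and 0 when libraries were rescaled to the same sum. That rescaling moved the median of all genes to -0.13, 0.06 and -0.12 in the 3 comparisons, in the order of the report. The reads summed over the members were 52.5, 265, 55.7 and 41.4 with the shortest annotated transcript (steady-state wild type, transgenic, transplanted wild type, knockout-labelled) and 145, 523, 157 and 122 with the whole transcript length, in place of 112, 401, 123 and 94.6. Summing the Ear members gave differences of 3.13, 0.75 and -0.62 in the 3 comparisons, against medians of 1.80, 0.00 and 0.00 over the single genes. These sums leave out Ear7 and Ear12. With them the sums were 0.538, 18.4, 2.46 and 1.12 FPKM in the same library order. The knockout and wild-type comparisons then had the opposite direction, and the transgenic comparison kept its own. Depth limits the Ear genes and Epx, which rest on 0 to 28 reads.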
